A study of Homo sapiens with 11 samples.

Results

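The genes described here are ATF4 and 9 genes of the amino acid stress response, ASNS, CHAC1, TRIB3, DDIT3, SESN2, PSAT1, PHGDH, CEBPB and ATF3, measured with every one of their probes. They are 10 of the 20046 named genes on the array, with 16 of its 47321 probes. The set was chosen by measured values, namely the lower log2 values of ATF4 and ASNS at 48 h, so the 48 h difference between MASTL siRNA and control siRNA is given for these genes as a description without a test. The rule of that choice names no 24 h value, so the 24 h arrays carry the test. Its independence is limited, because earlier results of these data were known and the spread was estimated over all 11 arrays. RNA came from MDA-MB-231, an established line of human triple-negative breast adenocarcinoma, grown in a serum-containing medium supplemented with glutamine and non-essential amino acids. Cells were transfected with 1 siRNA against MASTL or with a non-targeting control siRNA, both by lipid transfection, and RNA was measured on 11 one-colour Illumina bead arrays. The groups were MASTL siRNA at 48 h (3 arrays, replicates 1, 3 and 4), control siRNA at 48 h (3 arrays, replicates 1, 3 and 4), MASTL siRNA at 24 h (2 arrays, replicates 1 and 3) and control siRNA at 24 h (3 arrays, replicates 1, 2 and 3). The labels number the replicates without saying that they came from separate cultures, so every p-value measures the spread between these arrays, which may be technical. With a single MASTL siRNA, effects of losing MASTL and effects of that siRNA on other transcripts cannot be told apart.

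ATF4 is a transcription factor of the basic leucine zipper (bZIP) family. When amino acids run short or unfolded proteins build up in the endoplasmic reticulum, kinases phosphorylate the initiation factor eIF2, which lowers general protein synthesis while raising translation of the ATF4 mRNA. ATF4 pairs with C/EBP proteins on a composite DNA element and switches on genes of amino acid synthesis, amino acid uptake and tRNA charging, among them ASNS, the enzyme that makes asparagine. Much of this control acts on the translation of ATF4, so its mRNA, measured here, is not a measure of the protein. MASTL, also called Greatwall, is a mitotic kinase that restrains the phosphatase PP2A through ENSA and ARPP19.

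The siRNA target in the labels is shown because every comparison rests on this 1 reagent, and the promoter stretches below show where the core of the ATF4 element lies among the 10 genes.
MASTL siRNA target: acgccttattctagcaaatta
ASNS promoter: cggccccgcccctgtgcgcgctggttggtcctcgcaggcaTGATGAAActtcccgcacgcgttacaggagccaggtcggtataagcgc
CHAC1 promoter: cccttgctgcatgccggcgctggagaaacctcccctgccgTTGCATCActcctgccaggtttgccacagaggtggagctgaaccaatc
ATF3 promoter: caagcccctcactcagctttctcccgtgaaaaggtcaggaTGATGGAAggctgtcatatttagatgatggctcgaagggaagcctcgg
Capitals mark the match to TGATGNAA, the core of the composite element, searched on both strands; the match of CHAC1 lies on the opposite strand. Promoter sequences are from RefSeq on GRCh38.p14, read in the direction of each gene, at chr7:97872429-97872516 on the minus strand for ASNS, chr15:40953222-40953309 on the plus strand for CHAC1 and chr1:212565176-212565263 on the plus strand for ATF3. The matches begin 68 bases before the start of ASNS, 209 bases before the start of CHAC1 and 191 bases before the start of ATF3. These 3 of the 10 genes had a match in a window of 250 bases before to 50 bases after an annotated start, against 4.46% of the 27305 genes in the promoter table, or 3.62% of its 35116 windows. The other 7 genes had no such letters in the window. Among the other genes of the pathway described further on, 7 of 10 cytosolic aminoacyl-tRNA synthetases and 5 of 9 amino acid transporters with a promoter in the table had a match, against 2 of 9 genes of serine, glycine, one-carbon and proline synthesis. A match is a stretch of letters and was not tested as a binding site.

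**Figure D1:**
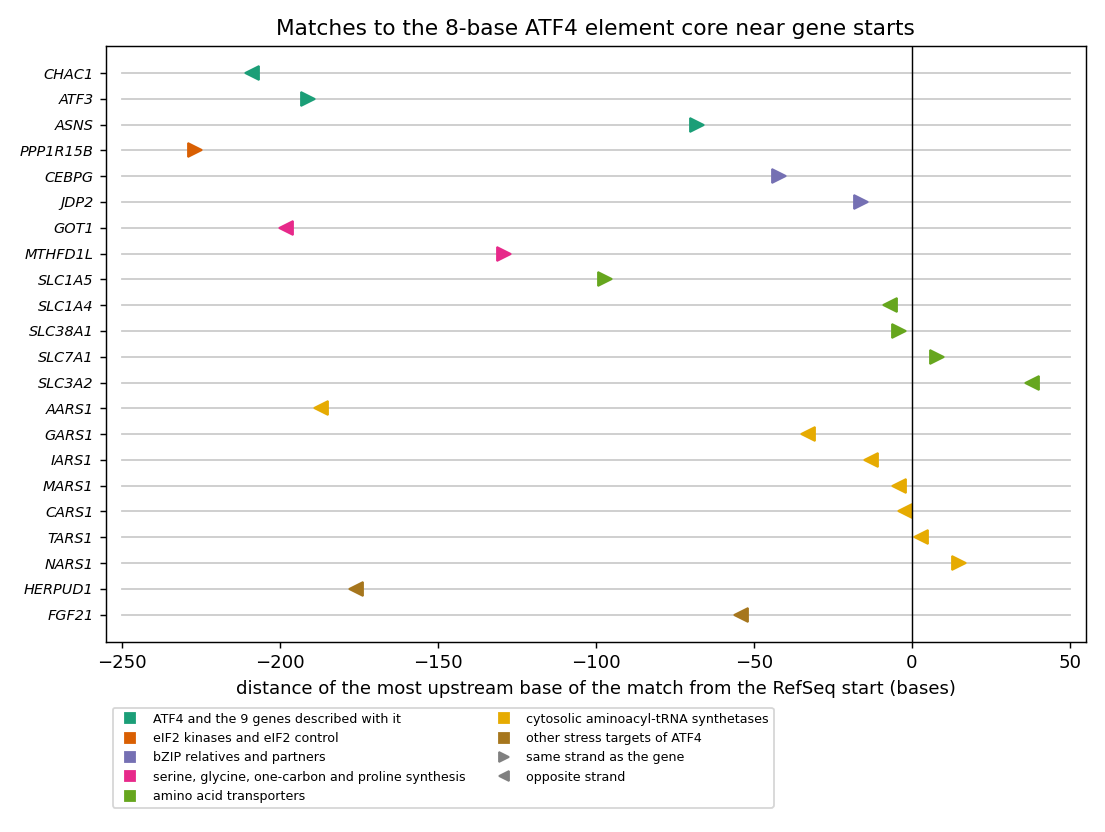
Position of each match to the 8-base core (x axis, bases from the RefSeq start, with the start at 0) for every listed gene that has one, 1 gene a row, coloured by list and with the pointer showing the strand. The match of ASNS begins 68 bases before its start, closer than those of ATF3 (191 bases) and CHAC1 (209 bases).

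All values are the authors' normalized log2 values, and a level is given in log2 units. The arrays had been brought to the same distribution, each with a median of 7.40, and arrays of a group correlated at 0.990 to 0.997. MASTL, the siRNA's target, read 7.54, 7.53 and 7.67 under MASTL siRNA at 48 h, against 8.41, 8.42 and 8.72 under control siRNA at 48 h. It read 7.61 and 7.69 under MASTL siRNA at 24 h, against 8.74, 8.73 and 8.64 under control siRNA at 24 h. The 2 siRNA groups stood apart at both times, and MASTL fell under its siRNA, with a log2 change of -0.93 at 48 h (limma adjusted p = 0.00116) and -1.05 at 24 h (limma adjusted p = 0.00136). Among markers, VIM and CD44, typical of this mesenchymal line, lay above the noise limit on all 11 arrays. EPCAM, an epithelial marker, and the keratin KRT18 also lay above it on all 11 arrays. PGR and CDH1 did so on none and ESR1 on 1. The leukocyte markers PTPRC and CD3E lay above the limit on none, and CD68, a macrophage lysosomal protein that many tumour lines also express, on all 11. The linear values of 4 markers of leukocytes and endothelium (PTPRC, CD3E, CD68 and PECAM1, of which 2 lay above the limit) summed to 1690 to 2069 under MASTL siRNA at 48 h, against 2338 to 3455 under control siRNA at 48 h, and to 1985 to 2002 under MASTL siRNA at 24 h, against 2294 to 2631 under control siRNA at 24 h. Most of that sum is CD68, which had a log2 change of -0.84 at 48 h (limma adjusted p = 0.0427). That call was lost in 12 of 19 other settings. With every probe as a feature, its other kept probes were called lower too (limma adjusted p = 0.0247 and 0.00824). The part of CD68 in the results was not tested.

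A probe was kept when it exceeded a noise limit of 7.41 on at least 2 arrays. The limit was set once, from the dim side of the values of all arrays together. Of the 16 probes of the 10 genes, 12 passed, and 9 genes had at least 1 of them. CHAC1, which degrades glutathione and is among the most inducible ATF4 targets, was not above the limit on any array. Its probe read 7.32, 7.35 and 7.34 under MASTL siRNA at 48 h, against 7.33, 7.35 and 7.35 under control siRNA at 48 h, and it is not compared further. The second probe of PSAT1 and a pair of ATF3 probes were not above the limit on any array either. Each of the 9 remaining genes is described by its probe of highest mean, and the other kept probes are given where they exist. Fold changes of genes near the noise limit, such as SESN2, are understated.

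At 48 h, ATF4 and its target ASNS were lower under MASTL siRNA than under control siRNA, by 1.49-fold and 1.65-fold, and the groups did not overlap for either gene. TRIB3 and DDIT3 were lower by smaller amounts, also without overlap, and the other 5 genes stayed within 0.15 log2 units. ATF4 read 12.03, 12.17 and 12.48 in the MASTL siRNA arrays at 48 h, against 12.76, 12.88 and 12.77 in the control arrays at 48 h. All 3 MASTL siRNA arrays lay below all 3 controls, with replicate 4 the closest to them. The means were 12.23 ± 0.23 under MASTL siRNA and 12.80 ± 0.063 under control siRNA (SD, n = 3 each), a log2 change of -0.57 (95% interval -0.80 to -0.35). In bulk RNA, fewer cells expressing a gene and less of its RNA per cell cannot be told apart.

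The 3 ATF4 probes did not give one value. The second probe read 8.30, 8.37 and 8.54 under MASTL siRNA at 48 h, against 8.75, 8.95 and 8.80 under control siRNA at 48 h, a log2 change of -0.43 (SE 0.085) without overlap. The third read 7.68, 7.59 and 7.70 under MASTL siRNA at 48 h, against 7.65, 7.59 and 7.70 under control siRNA at 48 h, a log2 change of 0.0057 (SE 0.043). The readings of the third probe overlap and lie close to the noise limit, where a fold change is compressed. Which transcripts each probe detects was not analysed here.

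ASNS, asparagine synthetase, read 9.32, 9.51 and 9.68 in the MASTL siRNA arrays at 48 h, against 10.03, 10.20 and 10.47 in the control arrays at 48 h. The highest MASTL siRNA array lay below the lowest control. The means were 9.51 ± 0.18 under MASTL siRNA and 10.23 ± 0.22 under control siRNA (SD, n = 3 each), a log2 change of -0.73 (95% interval -0.995 to -0.46). Its second probe read 8.13, 8.14 and 8.23 under MASTL siRNA at 48 h, against 8.44, 8.53 and 8.51 under control siRNA at 48 h. Both ASNS probes were lower without overlap, the second by a log2 change of -0.33 (SE 0.041).

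TRIB3, a pseudokinase that binds ATF4 and damps its activity, read 9.51, 9.46 and 9.43 under MASTL siRNA at 48 h, against 9.67, 9.94 and 9.66 under control siRNA at 48 h. DDIT3, the C/EBP-related factor CHOP of the unfolded protein response, read 7.87, 8.06 and 7.97 under MASTL siRNA at 48 h, against 8.17, 8.26 and 8.12 under control siRNA at 48 h. In both genes the groups stood apart, but for DDIT3 the gap between the highest MASTL siRNA array and the lowest control was smaller than the spread within either group. The log2 changes were -0.29 (95% interval -0.58 to -0.00055) for TRIB3 and -0.21 (-0.48 to 0.057) for DDIT3.

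The remaining genes overlapped between the groups at 48 h. SESN2, a leucine-binding inhibitor of mTORC1, had a log2 change of -0.014 (SE 0.031), and ATF3, a stress-induced bZIP repressor, one of -0.021 (SE 0.088). PHGDH, which starts serine synthesis from a glycolytic intermediate, had 0.068 (SE 0.072), and PSAT1, the transaminase of the next step, -0.060 (SE 0.17). CEBPB, a C/EBP partner of ATF4, had -0.15 (SE 0.16). Thus asparagine synthetase was lower while the enzymes of serine synthesis overlapped. Without a replicate block, the interval of PSAT1 (-0.45 to 0.33) would still hold a change of the size seen in TRIB3 (-0.29). With the replicate number as a block over both times, the PSAT1 interval was -0.33 to 0.21, which also holds it. With a block within each time, from the pairwise reading below, it was -0.16 to 0.039, which does not. PHGDH read only 7.62 to 7.87 at 48 h, near the noise limit, where a fold change is compressed.

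**Figure D2:**
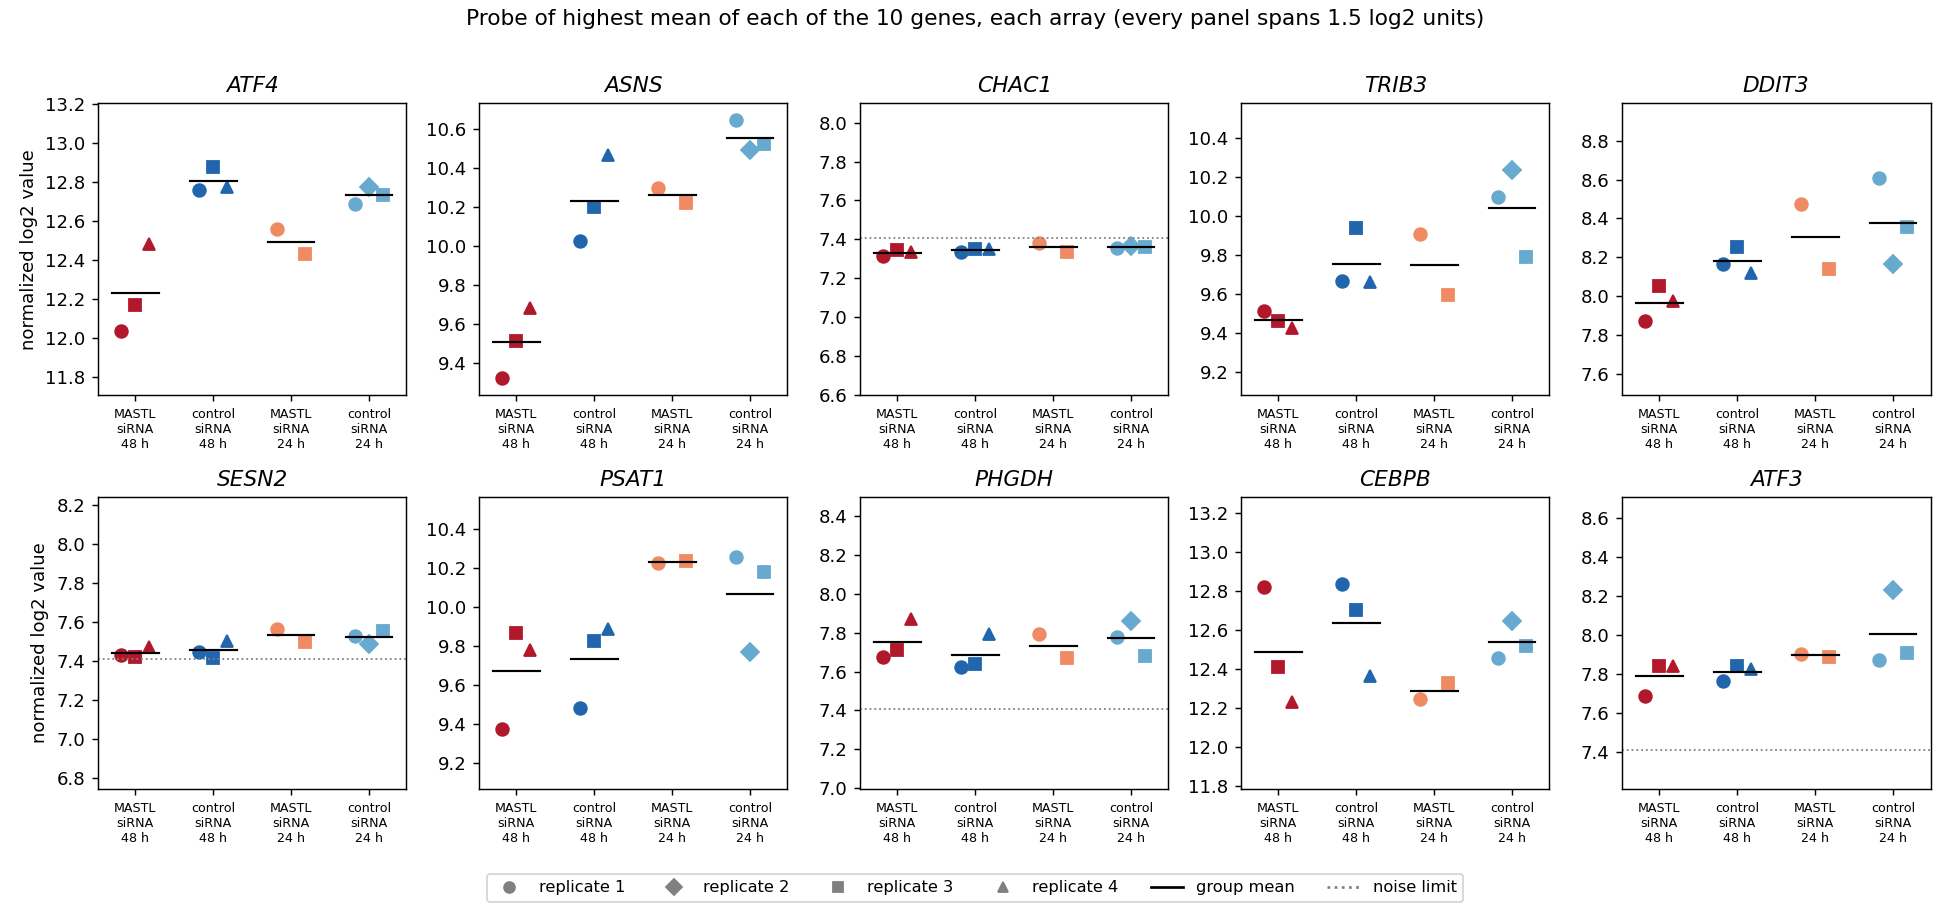
Normalized log2 value (y axis, every panel spanning 1.5 log2 units) of each of the 10 genes on each of the 11 arrays, by siRNA and time, with symbols for the replicate number, bars for group means and a dotted line for the noise limit of 7.41. ATF4 lies between 12.03 and 12.48 in the MASTL siRNA arrays at 48 h and between 12.76 and 12.88 in the control arrays at 48 h; CHAC1 lies below the noise limit throughout.

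Over all 22030 features tested by limma at 48 h, 520 (2.36%) passed an adjusted p of 0.05, 232 higher (1.05%) and 288 lower (1.31%). The 9 genes include 2 lower calls, ATF4 and ASNS, which the choice of the set had fixed. Neither call held in all 19 other settings, where the limma adjusted p reached 0.0977 for ATF4 and 0.0851 for ASNS. Of the 9, 4 were lower without overlap (ATF4, ASNS, TRIB3 and DDIT3), against 8.56% of all features, and 0 were higher without overlap, against 10.2%. The log2 change was negative in 8 of the 9, with a median of -0.15, against a median of 0.0013 over all features. The same contrast chose the genes, so these counts describe them and no more.

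The arrays of replicates 1, 3 and 4 at 48 h deviated together across the siRNAs, which allowed a pairwise reading. ASNS differed by -0.71, -0.69 and -0.79 between MASTL siRNA and control siRNA in replicates 1, 3 and 4, a narrower range than the levels themselves. ATF4 differed by -0.73, -0.71 and -0.29 in the same replicates, so that replicate 4 showed less than the others. TRIB3 differed by -0.16, -0.48 and -0.23 and DDIT3 by -0.29, -0.20 and -0.14, each negative in 3 of 3 pairs. CEBPB was also negative in 3 of 3 pairs (-0.014, -0.30 and -0.13), and PHGDH was positive in 3 of 3 (0.053, 0.074 and 0.077). When limma took the replicate number as a block within each time, 2702 features were called at 48 h (12.3%), 1302 of them lower (5.91%), and and of the set ATF4, ASNS, TRIB3 and DDIT3 were among them. The calls of ATF4 and ASNS were fixed by the choice of the set, and those of TRIB3 and DDIT3 were made neither without a block nor with the replicate number as a block over both times. These are the arrays that chose the genes, so the calls are given as a description. The level of CEBPB moved opposite to that of ASNS across the replicate numbers at 48 h. CEBPB read 12.82 and 12.83 in replicate 1, 12.41 and 12.70 in replicate 3, and 12.23 and 12.36 in replicate 4, under MASTL siRNA and control siRNA in each pair. In both siRNA groups replicate 1 had the highest CEBPB level and the lowest ASNS level, and replicate 4 the lowest CEBPB level and the highest ASNS level.

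**Figure D3:**
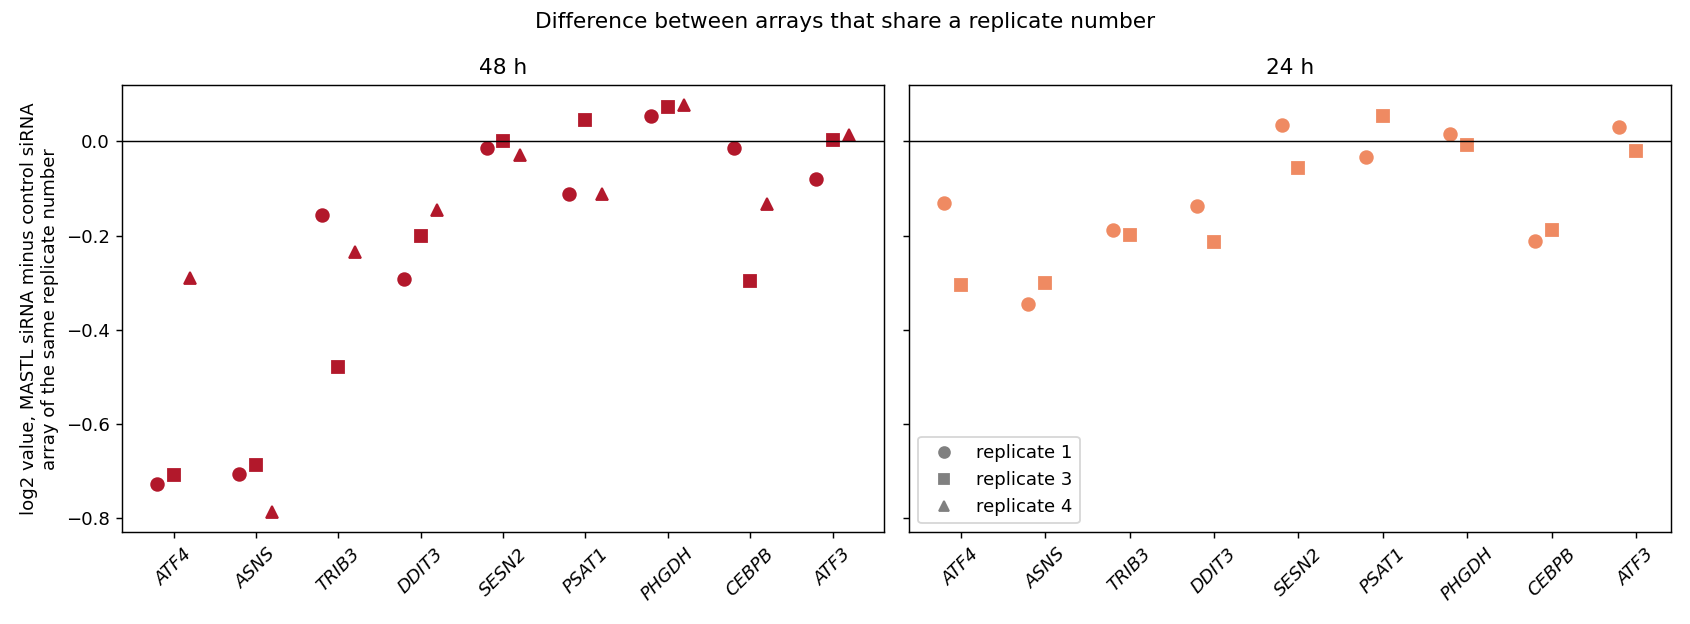
Difference in log2 value (y axis, MASTL siRNA minus control siRNA) between arrays that share a replicate number, for the 9 genes above the noise limit (x axis), at 48 h on the left and 24 h on the right. ATF4, ASNS, TRIB3, DDIT3 and CEBPB are below 0 in every pair at both times, with ASNS between -0.79 and -0.69 at 48 h, and PHGDH is above 0 in every pair at 48 h.

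The 24 h arrays asked whether the genes differed a day earlier, in RNA that the rule of choice did not name. No gene of the set passed the test. ATF4 read 12.56 and 12.43 under MASTL siRNA at 24 h, against 12.69, 12.77 and 12.73 under control siRNA at 24 h. Both MASTL siRNA arrays lay below the 3 controls, by a log2 change of -0.24 (SE 0.11, 95% interval -0.49 to 0.014, limma adjusted p = 0.586). Its second probe overlapped between the groups (log2 change -0.17, limma adjusted p = 0.694), as did the third (0.021, limma adjusted p = 0.956). ASNS read 10.30 and 10.22 under MASTL siRNA at 24 h, against 10.64, 10.49 and 10.52 under control siRNA at 24 h. These groups did not overlap either, and the log2 change was -0.29 (SE 0.13, 95% interval -0.59 to 0.0092, limma adjusted p = 0.570). The second ASNS probe read 8.53 and 8.47 under MASTL siRNA at 24 h, against 8.72, 8.62 and 8.61 under control siRNA at 24 h, a log2 change of -0.15 (limma adjusted p = 0.280, SE 0.046). Both ASNS probes and the main ATF4 probe thus separated the groups at 24 h by amounts that limma did not call. The 24 h intervals of the main ATF4 and ASNS probes hold 0, and that of the second ASNS probe lies below 0 (-0.25 to -0.046).

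TRIB3 read 9.91 and 9.59 under MASTL siRNA at 24 h, against 10.10, 10.24 and 9.79 under control siRNA at 24 h. DDIT3 read 8.47 and 8.14 under MASTL siRNA at 24 h, against 8.61, 8.17 and 8.35 under control siRNA at 24 h. Both overlapped, with log2 changes of -0.29 (SE 0.14, limma adjusted p = 0.617) and -0.071 (SE 0.13, limma adjusted p = 0.945). CEBPB read 12.24 and 12.33 under MASTL siRNA at 24 h, against 12.46, 12.65 and 12.52 under control siRNA at 24 h, a log2 change of -0.25 without overlap (SE 0.18, limma adjusted p = 0.788). The changes of SESN2 (0.0081), PSAT1 (0.16), PHGDH (-0.039) and ATF3 (-0.11) all had limma adjusted p-values between 0.853 and 0.981.

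Of the 9 genes, 0 passed limma at 24 h and 0 had an unadjusted p under 0.05, where 198 of 22030 features (0.899%) passed and 2007 (9.11%) had such a p. Of the 9, 3 were lower without overlap (ATF4, ASNS and CEBPB), against 11.8% of all features, and 0 were higher without overlap, against 13.4%. The change was negative in 7 of 9, with a median of -0.11 against 0.0030 over all features. No gene of the set was called under 18 of 19 other settings. The exception was the replicate block within each time, where ASNS was 1 lower call, against 1.84% of all features, with a log2 change of -0.32 and a limma adjusted p of 0.0123. Over the other settings its adjusted p ranged up to 0.953. That fit rests on only 2 pairs of arrays at 24 h.

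**Figure D4:**
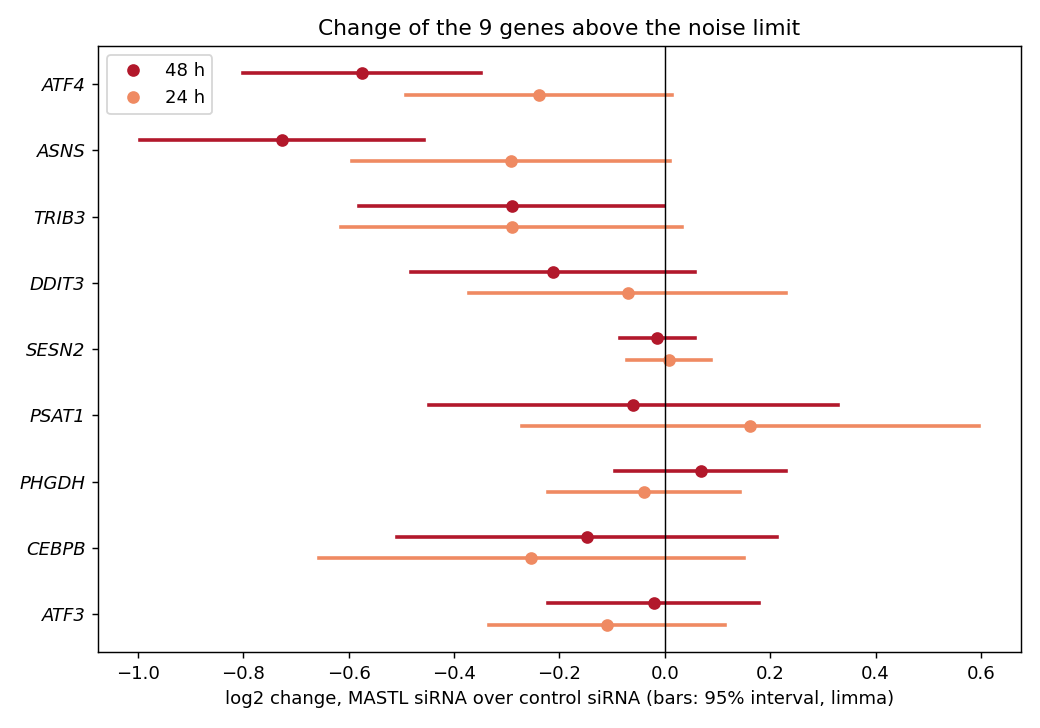
Log2 change, MASTL siRNA over control siRNA (x axis), with its 95% interval from limma, for each of the 9 genes above the noise limit at 48 h (upper of each pair) and 24 h (lower). The 48 h intervals of ATF4 (-0.80 to -0.35) and ASNS (-0.995 to -0.46) lie below 0, and all 24 h intervals reach 0.

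The 48 h change minus the 24 h change was -0.34 for ATF4 (SE 0.15), -0.43 for ASNS (SE 0.18), -0.14 for DDIT3 (SE 0.18) and 4.3e-05 for TRIB3 (SE 0.19). These differences contain the 48 h contrast and are descriptions. For TRIB3 the 24 h change behind this value moved between -0.45 and -0.13 when 1 array was left out (-0.45 without MASTL siRNA 24 h replicate 1, -0.13 without MASTL siRNA 24 h replicate 3) and was -0.19 with either replicate block. limma called 0 of 22030 features for this difference, with 663 (3.01%) at an unadjusted p under 0.05, so a difference between the times was not shown for any feature.

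Ordered by level, ATF4 averaged 12.23 ± 0.23 under MASTL siRNA at 48 h, 12.49 ± 0.090 under MASTL siRNA at 24 h (n = 2), 12.73 ± 0.043 under control siRNA at 24 h and 12.80 ± 0.063 under control siRNA at 48 h (SD, n = 3 unless given). The MASTL siRNA groups of the 2 times overlapped, as did the control groups of the 2 times. ASNS averaged 9.51 ± 0.18 under MASTL siRNA at 48 h, 10.23 ± 0.22 under control siRNA at 48 h, 10.26 ± 0.055 under MASTL siRNA at 24 h (n = 2) and 10.55 ± 0.081 under control siRNA at 24 h. Here the middle 2 groups overlapped, and the lowest group stood apart from all others. The order of the groups therefore differed between the genes: the control groups overlapped in ATF4, whereas every 48 h control lay below every 24 h control in ASNS.

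Between the times, ASNS differed by -0.76 (SE 0.13) under MASTL siRNA and -0.32 (SE 0.12) under control siRNA, 48 h over 24 h. PSAT1 differed by -0.56 (SE 0.19) under MASTL siRNA and -0.34 (SE 0.17) under control siRNA. TRIB3 differed by -0.28 under each siRNA (SE 0.14 with MASTL siRNA, 0.13 with control siRNA). PSAT1 read 9.37, 9.87 and 9.78 under MASTL siRNA at 48 h, against 10.23 and 10.24 under MASTL siRNA at 24 h, with no overlap between the times. DDIT3 differed by -0.34 (SE 0.13) under MASTL siRNA and -0.20 (SE 0.12) under control siRNA. ATF3 read 7.76, 7.84 and 7.83 under control siRNA at 48 h, all below the 7.87, 8.23 and 7.91 under control siRNA at 24 h. Of the 9 genes, 6 were lower at 48 h than at 24 h without overlap under MASTL siRNA (ASNS, TRIB3, DDIT3, SESN2, PSAT1 and ATF3), against 14.9% of all features, and 2 under control siRNA (ASNS and ATF3), against 7.36%. Without a replicate block, none of the 9 genes passed limma in either comparison of times. That test called 1 of 22030 features (0.00454%) under MASTL siRNA and 0 under control siRNA, where 5 of the 9 genes under MASTL siRNA and 1 under control siRNA had an unadjusted p under 0.05, against 9.60% and 9.91% of all features. The comparisons of times share the 48 h arrays with the contrast that chose the genes, and the 24 h arrays with the test above.

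The genes also differed in how far they spread within groups. The pooled SD within groups was 0.134 for ATF4 and 0.160 for ASNS, larger than that of 85.2% and 90.2% of all features. PSAT1 (0.231) and CEBPB (0.215) spread more than 96.5% and 95.6% of features, and SESN2 (0.0379) more than 41.8%. Without a replicate block, a change of a given size was therefore harder to detect in PSAT1 or CEBPB than in most features. This does not carry over to the 48 h fit with a block within each time. There the SE was 0.040 for PSAT1 and 0.053 for CEBPB, against 0.092 for ATF4.

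Over the 11 arrays, which share the siRNA groups and the times, the named genes whose level followed ATF4 most closely were ARHGEF39, a guanine nucleotide exchange factor (Pearson r = 0.945), NT5C, a nucleotidase (0.943), COCH, an extracellular matrix protein (0.912), SMU1, a splicing factor (0.910), and GOLGA1, a golgin (0.901). For ASNS they were OSER1 (r = 0.971), PIR, a nuclear iron-binding protein (0.964), ZP3, a zona pellucida glycoprotein (0.960), ELMO1, an activator of Rac signalling (0.953), and CENPI, a centromere protein (0.934). These coefficients describe the 4 groups as much as the arrays within them. None of these genes belongs to the pathway lists used here.

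The rest of the pathway was read from 7 lists with 95 entries, of which 85 had a feature above the noise limit. At 48 h, SLC7A1 and ATF2 fell and EIF4EBP1 rose, and no other listed gene passed. That is 1 higher call (1.18%) and 2 lower calls (2.35%), against 1.05% and 1.31% of all features. SLC7A1, the cationic amino acid transporter CAT1 that carries arginine and lysine, read 9.71, 9.91 and 9.78 under MASTL siRNA at 48 h, against 10.12, 10.12 and 10.24 under control siRNA at 48 h. All MASTL siRNA arrays lay below all controls, and SLC7A1 fell by 0.36 on the log2 scale (limma adjusted p = 0.0270, SE 0.066). It also read 9.78 and 9.98 under MASTL siRNA at 24 h, against 10.21, 10.27 and 10.23 under control siRNA at 24 h, a log2 change of -0.35 that did not pass (limma adjusted p = 0.0809). ATF2, a bZIP factor activated by stress kinases, read 7.77, 7.75 and 7.71 under MASTL siRNA at 48 h, against 7.97, 7.89 and 7.91 under control siRNA at 48 h, a log2 change of -0.18 (limma adjusted p = 0.0268). EIF4EBP1, the repressor of cap-dependent translation 4E-BP1 and itself a known ATF4 target, went the other way. It read 7.99, 7.95 and 7.93 under MASTL siRNA at 48 h, against 7.71, 7.74 and 7.78 under control siRNA at 48 h, a log2 change of 0.21 (limma adjusted p = 0.00624, SE 0.028). Leaving out any single 48 h array ended the call of ATF2, and leaving out any of them but MASTL siRNA replicate 3 ended that of SLC7A1, whereas EIF4EBP1 kept its call in all 19 other settings (adjusted p 0.00625 to 0.0400).

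Read by role, the control of eIF2 came first. Its 18 genes had a median log2 change of 0.020 at 48 h with 5 negative, and none passed limma. At an unadjusted p under 0.05 there were 3 of the 18, where 14.0% of all features had such a p at 48 h, the share to set beside the further counts of this kind at 48 h. PPP1R15A, the stress-induced regulatory subunit of an eIF2 phosphatase, had -0.085, and GCN1, the activator of the amino acid sensing kinase GCN2, had -0.023. The 16 bZIP relatives and partners had a median of -0.032 with 11 negative and 1 call, ATF2. The 5 close paralogs of the target genes were all negative without a call, with TRIB1 at -0.39 (limma adjusted p = 0.273) and TRIB2 at -0.22.

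Among genes that handle amino acids, the 13 of serine, glycine, one-carbon and proline synthesis had a median of 0.0029 with 6 negative and no call (5 at an unadjusted p under 0.05). SHMT2, the mitochondrial enzyme that converts serine to glycine, had -0.057, and GOT1, the cytosolic aspartate aminotransferase, had -0.33 (limma adjusted p = 0.0760). The 10 transporters had a median of -0.061 with 7 negative and 1 call, SLC7A1. The 11 cytosolic aminoacyl-tRNA synthetases were negative in 10 of 11, with a median of -0.16 and no call (4 at an unadjusted p under 0.05). AARS1, which charges alanine tRNA, had -0.42 (limma adjusted p = 0.0537), and EPRS1, which charges glutamate and proline tRNAs, had -0.13. Of the 12 other stress targets of ATF4, 10 were negative, with a median of -0.11 and the 1 higher call, EIF4EBP1. Over all 85 genes 54 were negative, with a median of -0.033 against 0.0013 over all features.

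Over the 85 genes, 18 had an unadjusted p under 0.05 at 48 h (21.2%, against 14.0% of all features). The paired reading of the 48 h arrays called more of these genes. With the replicate number as a block within each time, limma called 17 of the 85 lower (20.0%) and 6 higher (7.06%), against 5.91% and 6.35% of all features. The genes named in this paragraph were chosen after their values were seen, and their blocked limma adjusted p lay between 0.00133 and 0.0378. Among the bZIP relatives, CEBPD fell by 0.53 on the log2 scale (blocked limma adjusted p = 0.00133), with falls also in XBP1 (-0.38) and ATF6 (-0.20), both of the unfolded protein response. Among transporters, SLC38A2, the amino acid starvation-induced carrier SNAT2, fell by 0.50 (blocked limma adjusted p = 0.00302) beside SLC7A1, and SLC6A9, a glycine transporter, had -0.13. Of the other stress targets, DDIT4, an inhibitor of mTORC1 (-0.46), VEGFA, an angiogenic growth factor (-0.41), SQSTM1, an autophagy receptor (-0.36), and VLDLR, a lipoprotein receptor (-0.22), fell in this fit. NUPR1, a stress-induced chromatin protein (-0.30), TRIB1 (-0.39), GOT1 (-0.33) and CTH, which makes cysteine from cystathionine (-0.18), fell as well. Of the synthetases, YARS1 (-0.33) and WARS1 (-0.24) fell. In the opposite direction, ALDH18A1, the first enzyme of proline synthesis (0.30), SHMT1, the cytosolic counterpart of SHMT2 (0.29), and PSPH, the last enzyme of serine synthesis (0.13), rose. EIF2AK1, the eIF2 kinase HRI (0.17), and EIF2B5, a subunit of the eIF2 exchange factor (0.25), rose too. With the replicate number as a block over both times, 13 of the 85 were called lower and 3 higher, against 4.23% and 4.24% of all features, and CTH, DDIT4, SLC6A9, WARS1, PSPH, EIF2AK1 and EIF2B5 were not called. In both blocked fits the listed genes of amino acid synthesis thus ran both ways, with GOT1 lower and ALDH18A1 and SHMT1 higher.

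**Figure D5:**
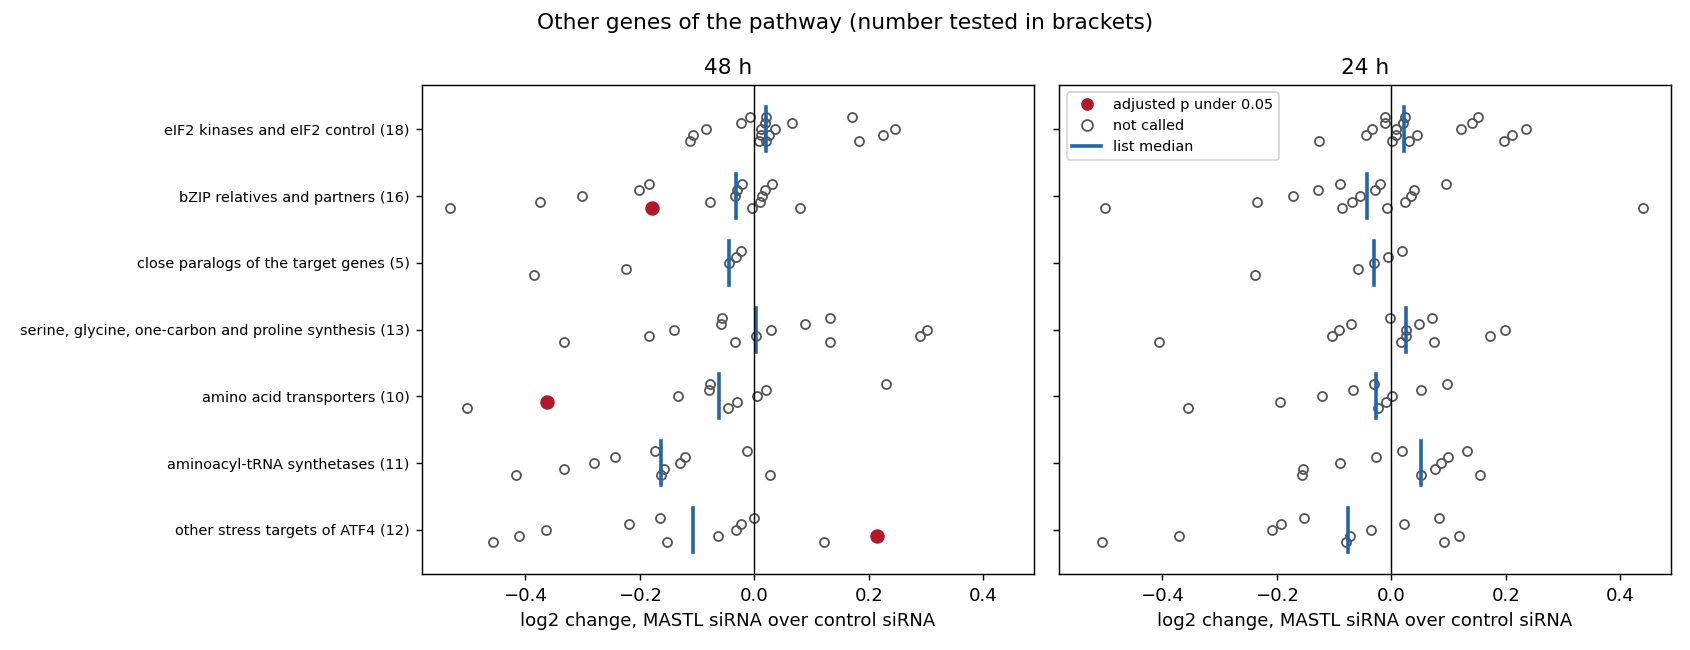
Log2 change, MASTL siRNA over control siRNA (x axis), of each tested gene of the 7 pathway lists (rows, number tested in brackets) at 48 h on the left and 24 h on the right, with filled points for limma adjusted p under 0.05 and a bar at the list median. The 3 filled points at 48 h are ATF2 (-0.18), SLC7A1 (-0.36) and EIF4EBP1 (0.21); no point is filled at 24 h.

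At 24 h, limma called 0 of the 85 genes, and 9 had an unadjusted p under 0.05 (10.6%, against 9.11% of all features). The log2 change was negative in 44 of the 85, with a median of -0.0051. The aminoacyl-tRNA synthetases were negative in 4 of 11, with a median of 0.052, against the 10 of 11 and -0.16 at 48 h. Their 48 h change minus 24 h change was negative in 11 of 11, with a median of -0.21 and no call by limma for any of them. GOT1 had -0.41 at 24 h (limma adjusted p = 0.103), close to its 48 h value.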

How the data were processed

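Per the labels' protocols, RNA was amplified, biotin-labelled and hybridised to Illumina bead arrays. The authors deposited normalized log2 values, and lumi is named without a version or role, per the submitters' processing notes. Whether these are plain log2 or variance-stabilized values is not stated in the sources used here. Another deposited table has 22 columns that could not be tied to samples, and it was not used. Symbols came from the platform annotation (30113 probes with 1 symbol, 8 with several, 17200 with none), and 30074 were updated through Entrez numbers. The noise limit was the 95th percentile of noise, taken by mirroring values below the mode of 7.36; 27178 probes passed it on at least 2 arrays. For each named gene the probe of highest mean was used, and each unnamed probe stood alone, giving 22030 features (13978 named). limma 3.58.1 in R 4.3.3 was fitted to the 4 groups over all 11 arrays, with Benjamini-Hochberg adjustment over all features, 7 residual and 1.67 prior degrees of freedom. The script was tested on simulated data. No depth applies to arrays; their number limits precision.

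The genes and pathway lists were chosen with earlier results of these data known. Genes named were the 10 with every probe, MASTL, up to 3 called genes of each list by adjusted p or otherwise the 2 of highest mean, and the 5 of highest Pearson r with ATF4 and with ASNS; others are said to have been chosen after their values were seen. Replicate numbers were checked by correlating deviations from group means between the siRNAs. The correlations were 0.693, 0.549 and 0.773 at 48 h, so the numbers were taken as pairs there, from the data and not the labels. They were 0.104 and 0.470 at 24 h, where 2 pairs are too few to decide. At 24 h, MASTL siRNA replicate 1 correlated more with control replicate 2 (0.331) than with control replicate 1 (0.104). Alternatives were the filter, cyclic loess, every probe as a feature, replicate blocks, an intensity trend, fits of 1 time only and leaving out each array.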

Additional observations from a re-analysis of the deposited data

How the results depend on the processing

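Counts of calls depended on the fit more than single changes did. At 24 h, 198 features were called, 360 with a replicate block over both times, 645 with a replicate block within each time, 58 from the 24 h arrays alone, and 56 to 203 when 1 array was left out (56 without MASTL siRNA 24 h replicate 3, 67 without replicate 1, and 96 without control 24 h replicate 1). At 48 h, 520 were called, 1866 and 2702 with those blocks, 338 from the 48 h arrays alone, and 252 to 572 when 1 array was left out (252 and 258 without control 48 h replicates 1 and 3, 294 and 336 without MASTL siRNA 48 h replicates 3 and 4). The difference between the 2 changes had 0 calls in every alternative run. The comparison of times under control siRNA had 0 calls, 2570 with the block over both times, 1 with an intensity trend and 0 to 39 when 1 array was left out (39 without control 24 h replicate 2). Under MASTL siRNA it had 1, 1691 with that block, 2 with no filter, 4 with the trend and 0 to 21 when 1 array was left out. That block called ASNS and PSAT1 lower at 48 h than at 24 h under both siRNAs. Under MASTL siRNA the adjusted p was 0.00518 and 0.0408 (limma), where 3.18% of all features were called lower. Under control siRNA the adjusted p was 0.0190 and 0.0444 (limma), where 5.36% of all features were called lower. However, same-numbered arrays of the 2 times correlated only between -0.301 and 0.161 in their deviations. The comparison of times could not be fitted with a block within each time, which takes up the difference between the times. Of the 9 genes, 0 were called at 24 h, 1 with the replicate block within each time and 0 to 0 when 1 array was left out. Of the 85 listed genes, 0 were called at 24 h (3 with the block within each time, 0 to 1 when 1 array was left out) and 3 at 48 h. Those 3 at 24 h with the block were 2 lower (2.35%) and 1 higher (1.18%), against 1.84% and 1.09% of all features. The count at 48 h was 16 and 23 with the blocks, 7 with probes above the limit on all arrays, 5 after cyclic loess, 1 from the 48 h arrays alone and 1 to 5 when 1 array was left out (1 without control 48 h replicate 1 or 3). Leaving out 1 array moved the log2 change of ATF4 between -0.70 and -0.48 at 48 h and between -0.30 and -0.18 at 24 h, and that of ASNS between -0.83 and -0.61 at 48 h and between -0.33 and -0.25 at 24 h. Changes near 0 at 24 h turned sign: SESN2 was -0.010 with either block and -0.027 to 0.043 when 1 array was left out, PHGDH 0.0043 and -0.10 to 0.022, ATF3 0.0048 and -0.18 to 0.0048, and DDIT3 -0.24 to 0.095 when 1 array was left out. With 2 MASTL siRNA arrays at 24 h, leaving 1 out assumes that the other varies like the remaining groups. The block within each time drops control 24 h replicate 2 from the 24 h change. The cause of these moves was not tested.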

Other observations

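PPP1R15A, TRIB1 and TRIB2 of the stress lists are described here in the comparison of times, although other listed genes differed more. Under control siRNA, 48 h over 24 h, SLC3A2 had -0.86, SLC7A5 -0.71, DDIT4 0.65 and CEBPD 0.63. Without a replicate block none of the 85 listed genes passed limma in either comparison of times. PPP1R15A, the stress-induced regulatory subunit of an eIF2 phosphatase, read 10.92, 11.28 and 10.80 under control siRNA at 48 h. Its readings under control siRNA at 24 h were 11.47, 11.62 and 11.62, a log2 difference of -0.57 (SE 0.13, limma adjusted p = 0.257). PPP1R15A read 10.76, 11.12 and 10.86 under MASTL siRNA at 48 h, against 11.54 and 11.60 under MASTL siRNA at 24 h. All 48 h arrays thus lay below all 24 h arrays. TRIB1 and TRIB2, the paralogs of TRIB3, differed the other way under control siRNA, by 0.43 (limma adjusted p = 0.411) and 0.37 (limma adjusted p = 0.395), 48 h over 24 h, where TRIB3 had -0.28. Under MASTL siRNA they differed by 0.29 (limma adjusted p = 0.626) and 0.13 (limma adjusted p = 0.812). With the replicate number as a block over both times, limma called the differences under control siRNA of PPP1R15A (adjusted p = 0.0204), TRIB1 (adjusted p = 0.00214) and TRIB2 (adjusted p = 0.0295). Under control siRNA that fit called 13 of the 85 listed genes higher and 13 lower, against 6.31% and 5.36% of all features. Under MASTL siRNA it called PPP1R15A (limma adjusted p = 0.0159) and TRIB1 (limma adjusted p = 0.00894) but not TRIB2 (limma adjusted p = 0.660). There 7 of the 85 were called higher and 12 lower, against 4.49% and 3.18% of all features. Same-numbered arrays of the 2 times correlated only between -0.301 and 0.161 in their deviations. These genes were described here after their values were seen.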
